A study of Mus musculus with 4 samples.

Results

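The 734 pairs described here are protein-coding genes annotated on opposite strands, pointing away from one another, whose 5' ends lie 1000 bp or less apart. They were chosen by position alone from the GENCODE M21 annotation of mouse chromosomes 1 to 19, with the gene on the minus strand on the left, and the rule uses no measured value, although it was proposed with earlier results of these data known. The pairs held 1448 genes, which is 6.96% of the 20807 protein-coding genes on these chromosomes. The median distance between the 5' ends was 128 bp, with quartiles at 66.2 and 240.0 bp and a range of 1 to 987 bp. Because 20 genes belonged to more than 1 pair, the 734 pairs stood at 714 distinct promoters. In 80 pairs a gene had a provisional symbol, such as Gm with a number or a name ending in Rik.

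ChIP-seq had been done on 1 clone (clone 3, passage 14) of organoids from a mouse colorectal tumour of the azoxymethane and dextran sulfate sodium model, with 1 library for each of the antibodies against KMT9alpha, KMT9beta and H4K12me1. The medium description names 1 µM tamoxifen and vehicle without saying which of them these libraries received, and the genotype field holds no genotype, so no treatment or genotype was compared. The input is not analysed here, the sequencing depth behind each list is unknown, and no value below has a replicate check. Of the marker genes looked up, the epithelial genes Epcam, Krt8, Krt18, Cdh1 and Vil1 had peaks from all 3 antibodies at their promoters, and the immune genes Ptprc, Cd3e and Adgre1 and the fibroblast genes Col3a1 and Dcn had none.

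A bidirectional promoter is a short stretch of DNA, usually a CpG island depleted of nucleosomes in its middle, from which a pair of genes is read in opposite directions. Such promoters are common among housekeeping genes, including those for DNA repair, histones and mitochondrial proteins. KMT9 is a histone methyltransferase made of the catalytic subunit KMT9alpha, encoded by N6amt1, and the partner KMT9beta, encoded by Trmt112, which also serves other methyltransferases. KMT9 places a single methyl group on lysine 12 of histone H4, the mark H4K12me1. RNA was not measured in these libraries.

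The DNA between the 5' ends of some of these pairs is printed below, because a single stretch carries the start region of both genes and because the pairs shown differ in their peaks. All are the plus strand of GRCm38.p6 (mm10) as given by RefSeq, from the 5' end of the left gene to that of the right gene, so the left gene is read leftwards and the right gene rightwards. Capitals mark matches, on either strand, to the motif letters searched, which are the CCAAT box, CCGGAAG for ETS factors, GCATGCG for NRF1, CACGTG for the E-box, AAGATGG for YY1, GGGCGGG for SP and KLF factors, TATAAAA for the TATA box and TGACGTCA for the CRE. The first group had peaks of all 3 antibodies:
Mrps12/Sars2, chr7:28741820-28741992: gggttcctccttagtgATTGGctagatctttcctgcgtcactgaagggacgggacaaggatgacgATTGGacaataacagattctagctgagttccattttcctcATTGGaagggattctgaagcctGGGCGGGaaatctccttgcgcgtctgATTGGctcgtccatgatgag
Aurka/Cstf1, chr2:172370535-172370681: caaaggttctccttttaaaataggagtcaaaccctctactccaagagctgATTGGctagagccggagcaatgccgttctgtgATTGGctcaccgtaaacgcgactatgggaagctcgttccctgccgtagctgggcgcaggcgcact
Bop1/Hsf1, chr15:76477277-76477422: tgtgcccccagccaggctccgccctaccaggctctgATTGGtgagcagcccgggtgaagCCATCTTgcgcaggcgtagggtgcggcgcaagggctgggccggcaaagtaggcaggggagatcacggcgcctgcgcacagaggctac
Ankib1/Krit1, chr5:3802925-3803184: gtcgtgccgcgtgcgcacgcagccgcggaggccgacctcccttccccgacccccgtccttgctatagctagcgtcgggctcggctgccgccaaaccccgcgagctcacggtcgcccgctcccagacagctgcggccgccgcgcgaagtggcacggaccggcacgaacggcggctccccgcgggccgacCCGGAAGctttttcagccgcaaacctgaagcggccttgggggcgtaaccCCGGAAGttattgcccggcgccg
Ptcd2/Mrps27, chr13:99344705-99344786: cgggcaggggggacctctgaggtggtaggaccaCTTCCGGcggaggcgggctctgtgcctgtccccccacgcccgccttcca
Alyref/Anapc11, chr11:120598365-120598421: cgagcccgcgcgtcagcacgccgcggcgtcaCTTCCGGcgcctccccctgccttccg
Osgep/Apex1, chr14:50924893-50924968: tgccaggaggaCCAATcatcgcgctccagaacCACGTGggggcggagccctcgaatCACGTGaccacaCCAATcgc
Hist1h2ac/Hist1h2bc, chr13:23683948-23684199: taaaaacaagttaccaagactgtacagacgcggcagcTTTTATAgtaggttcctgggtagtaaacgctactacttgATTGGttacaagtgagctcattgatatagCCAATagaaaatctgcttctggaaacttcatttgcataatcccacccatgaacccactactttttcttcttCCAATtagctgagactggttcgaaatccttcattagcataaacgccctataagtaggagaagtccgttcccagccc

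The second group had peaks of both KMT9 subunits and none of H4K12me1:
Slc25a29/Slc25a47, chr12:108835883-108836046: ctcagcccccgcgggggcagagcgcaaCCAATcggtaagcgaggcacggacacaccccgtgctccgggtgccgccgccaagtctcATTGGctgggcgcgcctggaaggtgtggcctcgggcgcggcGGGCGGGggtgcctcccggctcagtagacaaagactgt
Mrpl37/Cyb5rl, chr4:107066868-107066988: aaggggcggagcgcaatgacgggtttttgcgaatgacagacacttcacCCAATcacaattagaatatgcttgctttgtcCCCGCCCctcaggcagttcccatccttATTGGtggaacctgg
Abce1/Anapc10, chr8:79711740-79711820: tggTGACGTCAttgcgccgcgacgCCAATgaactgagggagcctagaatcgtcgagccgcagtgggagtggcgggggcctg

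The third group lacked a KMT9alpha peak. The first of these had a KMT9beta peak alone, and the others had no peak of any antibody:
Col4a4/Col4a3, chr1:82586849-82586921: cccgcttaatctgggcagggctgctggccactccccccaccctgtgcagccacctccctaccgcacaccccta
Peg3/Usp29, chr7:6730431-6730578: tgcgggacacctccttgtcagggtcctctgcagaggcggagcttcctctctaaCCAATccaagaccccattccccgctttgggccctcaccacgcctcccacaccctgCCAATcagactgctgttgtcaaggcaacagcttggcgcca
Lrrc63/Lcp1, chr14:75130881-75131101: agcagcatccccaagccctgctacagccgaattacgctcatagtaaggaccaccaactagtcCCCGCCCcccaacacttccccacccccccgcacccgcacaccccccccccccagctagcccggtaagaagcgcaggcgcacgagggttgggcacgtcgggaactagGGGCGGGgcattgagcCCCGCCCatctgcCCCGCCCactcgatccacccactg

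With all deposited peaks counted, those of KMT9 lay at nearly every head-to-head pair, and those of H4K12me1 at about 2 in 3 of them. Counting any peak that overlapped the span between the 5' ends plus 1 kb on either side, KMT9alpha was present at 688 of 734 pairs (93.7%, exact 95% interval 91.7 to 95.4), against a background of 52.8% over the promoters of all 20807 genes. KMT9beta was present at 707 pairs (96.3%, 94.7 to 97.6), where the background was 64.9%. H4K12me1 was present at 486 pairs (66.2%, 62.7 to 69.6), where the background was 42.9%. All 3 antibodies had a peak at 462 pairs (62.9%, 59.3 to 66.4; background 33.5%), and 16 pairs had no peak at all (2.18%, 1.25 to 3.52; background 30.3%). The shares depend on how many peaks of each list are counted. With the same number of top-scoring peaks per list KMT9beta was at 81.1% of pairs, H4K12me1 at 40.6% and all 3 at 36.1%, while KMT9alpha stayed at 93.7%. With peaks at or above each list's median score KMT9alpha was at 91.1%, KMT9beta at 92.1%, H4K12me1 at 43.9% and all 3 at 40.6%. The intervals cover counting error over promoters in 1 library, and pairs that share a gene or a peak are not independent.

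Since CpG content differs between kinds of promoter, the pairs were set beside 16684 single-gene promoters, those with no other protein-coding 5' end within 5 kb. The median ratio of observed to expected CpG in the central 1 kb was 0.78 for pairs and 0.50 for single-gene promoters. Shares of the single-gene promoters were therefore reweighted to the CpG classes of the pairs, 5 classes of equal size. KMT9alpha was found at 93.7% of pairs, against 74.3% of reweighted single-gene promoters, a difference of 19.5 percentage points (95% interval 17.6 to 21.3). The KMT9beta share was 96.3% of pairs and 83.3% of reweighted single-gene promoters, a difference of 13.0 points (11.6 to 14.5). For H4K12me1 the shares were 66.2% of pairs and 57.3% of reweighted single-gene promoters, a difference of 8.9 points (5.3 to 12.4).

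The match was poor in the lowest CpG class, and the differences depend on that class. Its 147 pairs had a median CpG ratio of 0.56, against 0.24 for the 10219 single-gene promoters that fell in it. In that class KMT9alpha was present at 75.5% of pairs and 21.8% of single-gene promoters, and H4K12me1 at 60.5% of pairs and 23.0% of single-gene promoters. In the other 4 classes the median ratios of pairs and single-gene promoters differed by less than 0.01. Over those 587 pairs and 6465 single-gene promoters, KMT9alpha was present at 98.3% of pairs and 87.4% of single-gene promoters, a difference of 10.9 points (9.6 to 12.2). KMT9beta was present at 584 of the 587 pairs, or 99.5% (98.5 to 99.9), against 94.5% of the single-gene promoters. H4K12me1 was present at 67.6% of pairs and 65.9% of single-gene promoters, a difference of 1.7 points whose interval of -2.2 to 5.7 includes 0. The higher share of KMT9 at pairs was thus present where CpG was alike, and a higher share of H4K12me1 was not shown there.

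**Figure D1:**
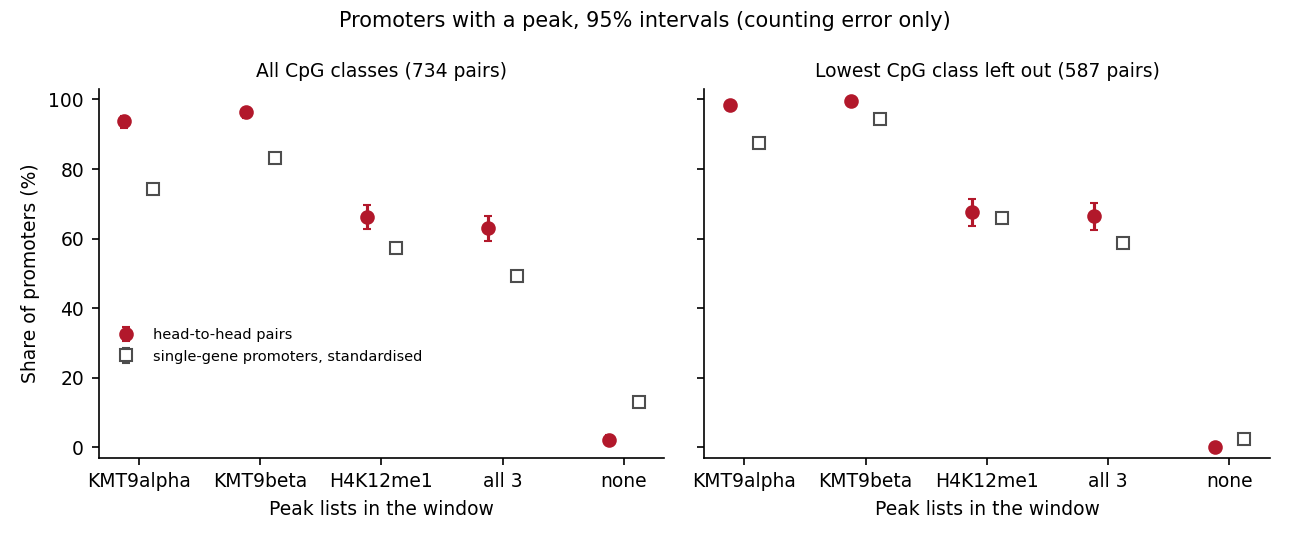
Share of promoters (%) with a peak of each antibody, of all 3 and of none, for head-to-head pairs (filled circles) and single-gene promoters reweighted to their CpG classes (open squares), with 95% intervals for counting error. With the lowest CpG class left out (right panel), KMT9alpha was at 98.3% of pairs and 87.4% of single-gene promoters, and H4K12me1 at 67.6% of pairs and 65.9% of single-gene promoters.

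Class by class, KMT9alpha was more frequent at pairs than at single-gene promoters. In the second class it was 97.3% of pairs and 79.0% of single-gene promoters, in the third 97.9% of pairs and 87.2% of single-gene promoters, in class 4 98.0% of pairs and 90.5% of single-gene promoters, and in the fifth 100% of pairs and 93.0% of single-gene promoters. The exact intervals of pairs and single-gene promoters did not overlap in any of these classes. H4K12me1 was present at 57.8% of pairs and 57.8% of single-gene promoters in the second class and at 75.5% of pairs and 71.5% of single-gene promoters in the fifth. All 16 pairs without any peak stood in the lowest class, and none of the 587 pairs above it lacked a peak (upper exact limit 0.63%), against 2.33% of single-gene promoters.

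**Figure D2:**
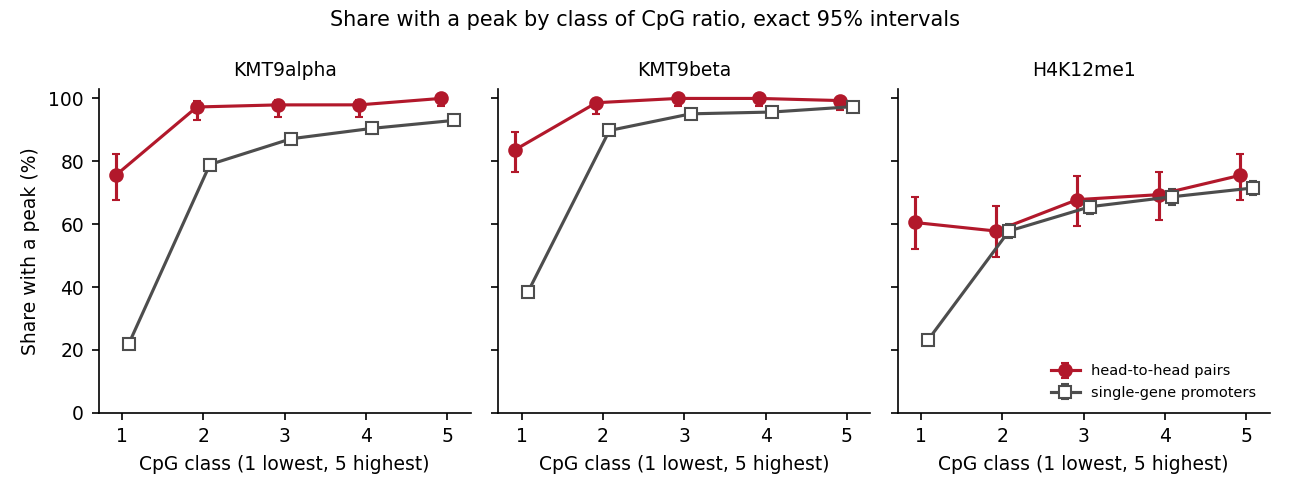
Share (%) of head-to-head pairs (filled circles) and single-gene promoters (open squares) with a peak of each antibody, by class of CpG ratio from lowest to highest, with exact 95% intervals. The lines for KMT9alpha stay apart in every class (97.3% of pairs and 79.0% of single-gene promoters in class 2), while those for H4K12me1 meet from class 2 on; in class 1 the single-gene promoters have a lower CpG ratio than the pairs.

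With all deposited peaks counted, the subunits were nearly always found together at pairs. Both were present at 682 pairs (92.9%, 90.8 to 94.7). Of these, 462 (67.7%, 64.1 to 71.2) also had H4K12me1 and 220 did not. Among single-gene promoters with both subunits the reweighted share with the mark was 67.3%, a difference of 0.4 points (-3.2 to 4.1), and with the lowest CpG class left out it was -0.9 points (-4.9 to 3.2). With the same number of top-scoring peaks taken from each list the mark was less frequent where both subunits lay, at 45.4% of such pairs and 51.1% of such single-gene promoters, a difference of -5.7 points (-10.0 to -1.5). Combinations other than all 3, both subunits or none were few. There were 15 pairs with KMT9beta and H4K12me1, 10 with KMT9beta only, 5 with H4K12me1 only, 4 with KMT9alpha and H4K12me1, and 2 with KMT9alpha only.

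One KMT9 peak usually covered the 5' ends of both genes, whereas the H4K12me1 peak often covered only 1 of them or lay beside both. A single KMT9alpha peak spanned both 5' ends at 615 of the 688 pairs with a peak (89.4%, 86.8 to 91.6), and a single KMT9beta peak did so at 664 of 707 (93.9%, 91.9 to 95.6). For H4K12me1 this held at 283 of 486 pairs (58.2%, 53.7 to 62.7). At 98 pairs the mark covered 1 of the 5' ends only, the left at 48 and the right at 50, so neither strand stood out. At 95 pairs (19.5%, 16.1 to 23.4) the H4K12me1 peak lay in the window but covered neither 5' end, against 11 pairs for each subunit. Taken gene by gene, the mark covered the left 5' end at 70.2% and the right 5' end at 70.6% of pairs with a peak, against 67.4% of the 5' ends of reweighted single-gene promoters with a peak.

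Coverage of both ends by 1 peak was lower at greater distance for all 3 antibodies. A fall with distance is built into this measure, since a peak of a given width reaches both ends less often when they lie farther apart. Where the 5' ends were 1 to 100 bp apart (306 pairs), 1 peak covered both at 99.0% of pairs with a KMT9alpha peak, 99.7% with a KMT9beta peak and 75.9% with an H4K12me1 peak. At more than 100 and up to 300 bp (296 pairs) the shares were 90.6% for KMT9alpha, 95.1% for KMT9beta and 56.9% for H4K12me1. At more than 300 bp (132 pairs) they were 62.7% for KMT9alpha, 77.2% for KMT9beta and 22.8% for H4K12me1. Peaks of H4K12me1 were also the narrowest, with a median width of 776 bp at pairs, and the part of width in these shares was not tested. The share of pairs with the mark itself was 65.0%, 65.9% and 69.7% in the 3 distance classes from near to far, and their exact intervals overlapped.

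**Figure D3:**
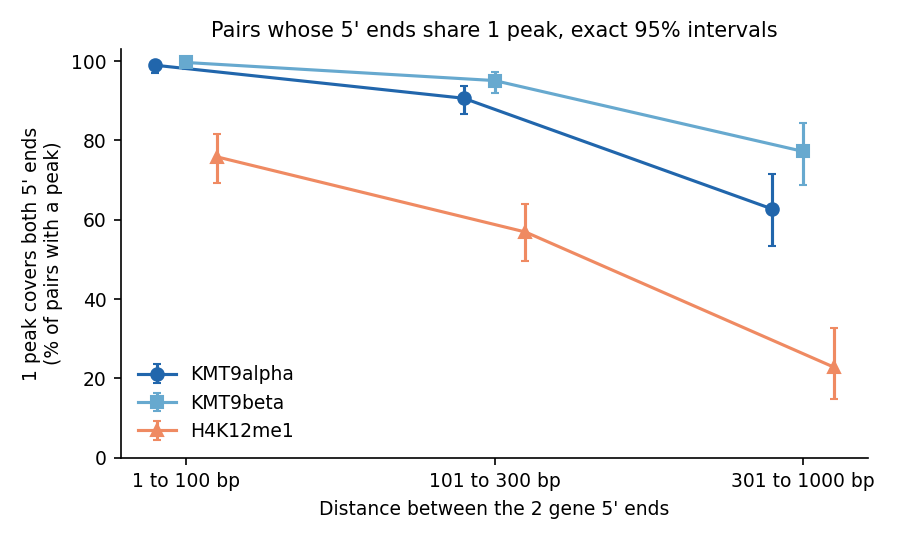
Share (%) of pairs with a peak in which 1 peak covers both gene 5' ends, by distance between the 5' ends, for each antibody with exact 95% intervals. KMT9alpha shares are 99.0%, 90.6% and 62.7%, and H4K12me1 shares 75.9%, 56.9% and 22.8%, from the nearest class to the farthest.

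Seen from the 5' end of each gene, the peaks of pairs were more frequent 500 bp upstream than 500 bp downstream. In pairs the upstream position is the nearer to the span midpoint, so peaks centred on the midpoint give this order. About the midpoint, coverage 500 bp to the left and right was 79.4% and 76.6% for KMT9alpha. It was 81.3% and 79.0% for KMT9beta, and 32.4% and 32.7% for H4K12me1. The peaks of single-gene promoters were displaced into the gene. At 500 bp upstream, KMT9alpha peaks covered 80.0% of the 5' ends in pairs, against 34.1% of reweighted single-gene promoters. KMT9beta covered 84.2% in pairs and 46.0% in single-gene promoters at that position, and H4K12me1 covered 35.1% in pairs and 13.8% in single-gene promoters. At 500 bp downstream the KMT9alpha coverage was 73.0% in pairs and 68.8% in single-gene promoters. H4K12me1 coverage there was 28.5% in pairs and 38.5% in single-gene promoters, so it was lower in pairs, and KMT9beta was at 71.9% in pairs and 76.8% in single-gene promoters. The highest coverage stood at the 5' end itself in pairs and 200 bp inside the gene in single-gene promoters for all 3 antibodies. In a pair, the upstream side of 1 gene is the start of the other, so both flanks of the span are transcribed regions. These profiles include the lowest CpG class.

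**Figure D4:**
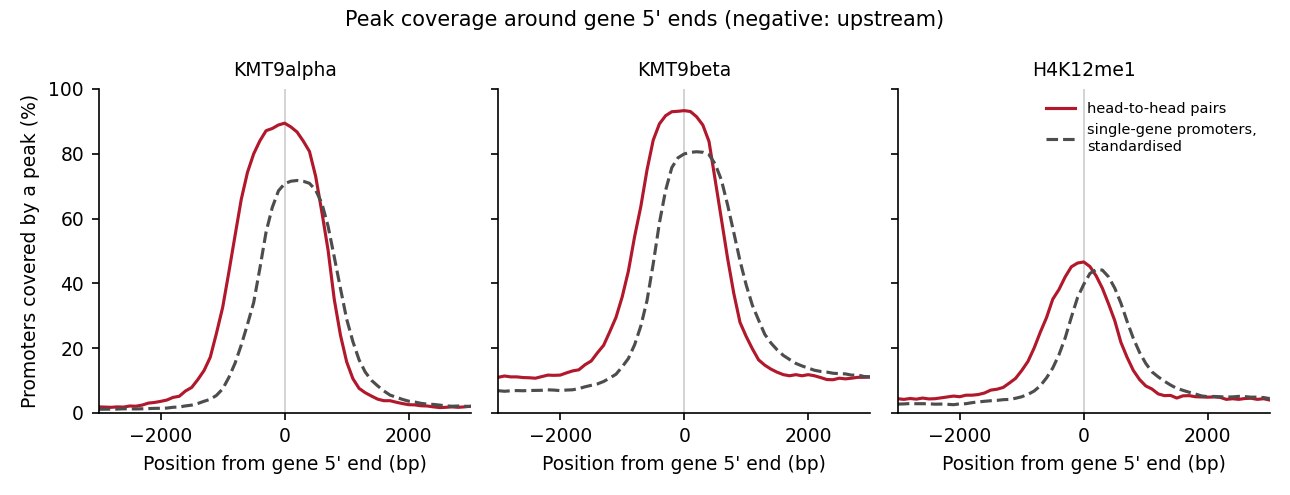
Share (%) of promoters whose base at each position is covered by a peak, from 3000 bp upstream (negative) to 3000 bp downstream of the gene 5' end, for head-to-head pairs (solid line, both genes of each pair) and single-gene promoters reweighted to their CpG classes (dashed line). At -500 bp KMT9alpha covers 80.0% of pairs and 34.1% of single-gene promoters, and at +500 bp H4K12me1 covers 28.5% of pairs and 38.5% of single-gene promoters.

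Pairs had somewhat wider KMT9alpha peaks and H4K12me1 peaks of about the same width as single-gene promoters. For single-gene promoters, the medians given here are the medians of the CpG classes averaged with the weights of the pairs. The widest KMT9alpha peak per promoter had a median of 1533 bp at pairs and, so averaged, 1367 bp at single-gene promoters. For KMT9beta the medians were 1545 bp at pairs and 1480 bp at single-gene promoters, and for H4K12me1 776 bp at pairs and 803 bp at single-gene promoters, a difference smaller than the counting error of the median. The authors' peak score was used only for ranking within 1 list, since its meaning was not given in the sources used here. KMT9alpha scores were piled up at about 3100, and 350 of 688 pairs with a KMT9alpha peak (50.9%) reached 3100, against 49.7% of reweighted single-gene promoters with a peak, a difference of 1.2 points (-2.7 to 5.1). The median KMT9alpha score was 3100 at pairs, and the class medians of single-gene promoters averaged 2461. The difference was 639 (429 to 639 from the counting error of the median of pairs alone). An average of class medians is not the median of the reweighted promoters, 49.7% of which reached 3100. The median of pairs stands at that piled-up value, so the size of the difference is hard to read. The value is no ceiling, since some scores exceed it, such as 3209 at Hist1h2ac/Hist1h2bc. Where all 3 antibodies had peaks, the KMT9alpha and H4K12me1 peaks overlapped each other at 452 of 462 pairs (97.8%) and at 97.3% of such single-gene promoters. The centre of the highest-scoring KMT9alpha peak lay a median of 167 bp from the midpoint of the span at these pairs, and that of the H4K12me1 peak 287 bp.

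Among the 682 pairs with both subunits, those with H4K12me1 had higher KMT9beta scores and wider subunit peaks than those without. The median KMT9beta score was 270.1 with the mark (462 pairs; quartiles 179.5 and 407.0) and 197 without it (220 pairs; quartiles 134 and 292). The KMT9alpha peak was 1616 bp wide with the mark and 1366 bp without it in the median, and the KMT9beta peak 1678 bp with the mark and 1390 bp without it, so these groups overlapped widely. Median distance between the 5' ends was 132 bp with the mark and 119 bp without it, and the median CpG ratio was 0.80 with it and 0.76 without it. In 4 groups of these pairs of about equal size, from the lowest to the highest KMT9beta score, the mark was present at 52.0%, 66.5%, 65.3% and 87.1%. Single-gene promoters with both subunits and scores in the same ranges had the mark at 45.4%, 63.9%, 73.3% and 85.6%. The exact intervals of pairs and single-gene promoters overlapped in all 4 groups, least in the third, with 57.6 to 72.4 for pairs and 71.3 to 75.3 for single-gene promoters.

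**Figure D5:**
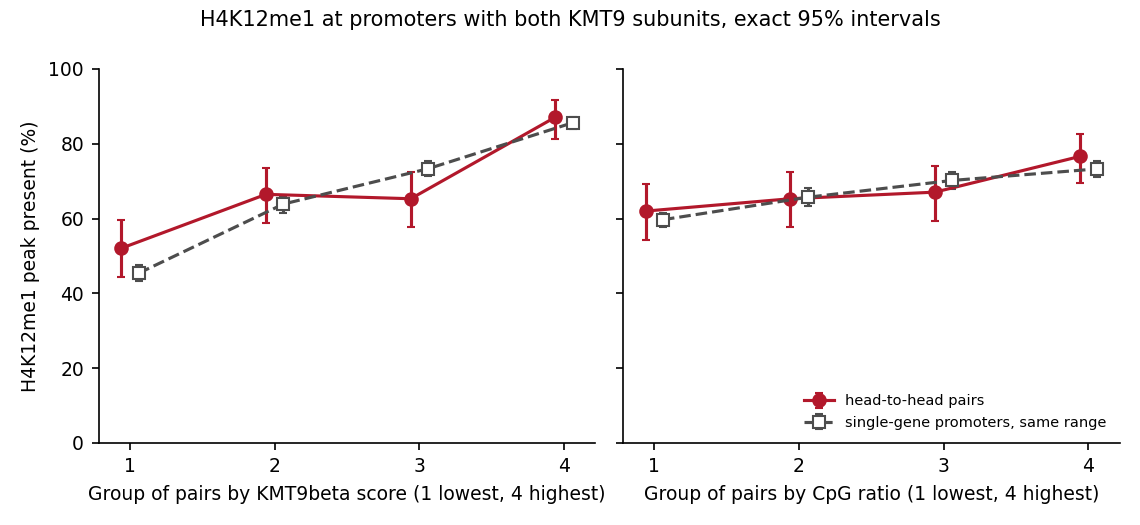
Share (%) of promoters with both KMT9 subunits that have an H4K12me1 peak, in 4 groups of the pairs by KMT9beta score (left) and CpG ratio (right), for head-to-head pairs (filled circles) and single-gene promoters in the same ranges (open squares), with exact 95% intervals. By KMT9beta score the share goes up in pairs between the lowest group (52.0%) and the highest (87.1%).

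Genes of DNA repair and replication were often arranged in pairs, and KMT9alpha lay at these pairs about as often as at all pairs. Of 146 such genes, 38 (26.0%) were in pairs, against 6.96% of all protein-coding genes, and they made 40 pairs, some of which share a gene. KMT9alpha was present at 40 of the 40, against 93.7% of all pairs, KMT9beta at 39, H4K12me1 at 24 and all 3 at 23 (57.5%, 40.9 to 73.0), an interval that includes the 62.9% of all pairs. All 3 were at 16 of the 40 with peaks at or above the median score and at 14 with equally many peaks per list. Atm, a kinase of the response to DNA breaks, shares its promoter with Npat, a coactivator of histone gene transcription, and the pair scored 3100 for KMT9alpha, 293 for KMT9beta and 178 for H4K12me1. Each of these 3 peaks covered both 5' ends, which lie 307 bp apart at chr9:53536740-53537047. Pms2, a mismatch repair gene, and Aimp2, a scaffold of tRNA synthetases, scored 1308 for KMT9alpha, 340.1 for KMT9beta and 97.4 for H4K12me1. Brca1/Nbr1 had all 3 and scored 2818 for KMT9alpha, 81.1 for KMT9beta and 56.6 for H4K12me1, and the KMT9beta peak covered neither 5' end. Mcm4, a subunit of the replicative helicase, and Prkdc, the kinase of DNA end joining, scored 2678 for KMT9alpha, 254 for KMT9beta and 92.4 for H4K12me1, and the mark covered the Mcm4 end only. The pair of Osgep and Apex1, the base excision nuclease whose CACGTG matches are printed above, scored 3171 for KMT9alpha, 127 for KMT9beta and 60.3 for H4K12me1.

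The cell cycle list had 17 pairs, of which 12 had all 3 antibodies (70.6%, 44.0 to 89.7), an interval that includes the 62.9% of all pairs. With equally many peaks per list 7 of the 17 had all 3. Aurka, a mitotic kinase, and Cstf1, a factor of polyadenylation, scored 3100 for KMT9alpha, 504 for KMT9beta and 63.3 for H4K12me1, and the mark covered the Cstf1 end alone. Alyref/Anapc11, with a subunit of the anaphase-promoting complex, scored 3100 for KMT9alpha, 732 for KMT9beta and 247 for H4K12me1. Abce1/Anapc10, with another of its subunits, had 3100 for KMT9alpha and 197 for KMT9beta and no peak of H4K12me1.

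Mitochondrial genes were also frequent among pairs. Of 78 genes for mitochondrial ribosomal proteins 18 were in pairs, all 18 pairs had both subunits and 8 had the mark (44.4%, 21.5 to 69.2). Of 104 respiratory chain genes 23 were in pairs, all 23 pairs had both subunits and 17 had the mark (73.9%, 51.6 to 89.8). Those 17, which also had all 3, were 6 with peaks at or above the median score and 4 with equally many peaks per list. These intervals overlap each other and the 66.2% of all pairs. Both subunits were present at 92.9% of all pairs. No interval of that share was computed for the mitochondrial lists, so a higher share in them is not shown. Mrpl37/Cyb5rl scored 3194 for KMT9alpha and 288 for KMT9beta without the mark, whereas Ptcd2/Mrps27 had 3173 for KMT9alpha, 181 for KMT9beta and 52.2 for H4K12me1. Mrps12/Sars2, a mitochondrial ribosomal protein and a mitochondrial tRNA synthetase, had 1201 for KMT9alpha, 119 for KMT9beta and 75.6 for H4K12me1. Hadha and Hadhb, the subunits of the trifunctional protein of fatty acid oxidation, had 3100 for KMT9alpha, 679 for KMT9beta and 289 for H4K12me1. The ATP synthase pairs Atp5c1/Kin and Atp5h/Kctd2 had all 3, with H4K12me1 scores of 67.1 and 68.2, and at Atp5h/Kctd2 the mark covered neither 5' end.

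Replication-dependent histone genes were the list with the largest part in pairs, 27 of 67 genes (40.3%) in 14 pairs, of which 13 had KMT9alpha, 13 KMT9beta and 9 the mark. The shares of these 14 were 92.9%, 92.9% and 64.3%, against 93.7%, 96.3% and 66.2% of all pairs, and with equally many peaks per list 3 of the 14 had all 3. Hist1h2ac/Hist1h2bc scored 3209 for KMT9alpha, 179 for KMT9beta and 69.8 for H4K12me1. Histone genes are near-identical copies, and how reads were assigned among copies was not given in the sources used here, so single histone pairs are uncertain. Of the other lists, cytosolic ribosomal proteins had 9 pairs with 5 of all 3, proteasome subunits 7 pairs with 4, aminoacyl-tRNA synthetases 5 pairs with 4, chaperonins 3 pairs with 2 and zinc finger proteins 18 pairs with 12, and the exact interval of each of these shares includes the 62.9% of all pairs. Med22/Rpl7a scored 3100 for KMT9alpha, 636 for KMT9beta and 99.1 for H4K12me1. Dnajc2/Psmc2, whose 5' ends are 32 bp apart, had 3100 for KMT9alpha, 413 for KMT9beta and 246 for H4K12me1. Olfactory and vomeronasal receptors, 1457 genes, gave 1 pair, Nt5c3/Vmn1r4, which had all 3.

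Of 26 gene pairs named in textbooks as sharing a promoter and looked up here, 15 met the rule and 12 of those had all 3 antibodies, against 62.9% of all pairs. No interval was computed for these 15 pairs, so a higher share among them is not shown. Apaf1/Ikbip, with the gene of the apoptosome scaffold, scored 3188 for KMT9alpha, 307 for KMT9beta and 164 for H4K12me1. Bop1, a ribosome biogenesis factor, and Hsf1, the heat shock transcription factor, had 3100 for KMT9alpha, 514 for KMT9beta and 74.6 for H4K12me1, with the mark beside both 5' ends. Psmb1/Tbp, a proteasome subunit and the TATA-binding protein, had 1969 for KMT9alpha and 144 for KMT9beta without the mark. The KMT9beta peak with that score covered neither 5' end, and another covered both. Wrap53/Trp53, a telomerase assembly factor and the tumour suppressor p53, had 3100 for KMT9alpha and 159 for KMT9beta without the mark, and no KMT9beta peak covered either 5' end. Col4a4/Col4a3, chains of basement membrane collagen, had a KMT9beta score of 161 and no peak of the others. Some textbook pairs that did not meet the rule, among them Hspd1/Hspe1 with 5' ends 111 bp apart in the annotation, have gene models that overlap at their 5' ends.

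Of the pairs with all 3 antibodies, Ankib1/Krit1, with the gene of an endothelial junction protein, had the highest H4K12me1 score, 745, beside 3100 for KMT9alpha and 714 for KMT9beta. Next came Hnrnpd/4930524J08Rik, with an RNA-binding protein, at 592 for H4K12me1, and Eef1d/Tigd5, with a translation elongation factor, at 488. Zbtb25/Zbtb1, Polr2l/Tspan4 and Hsdl1/Dnaaf1 followed with 436, 431 and 404. The mark covered both 5' ends at 5 of these 6 pairs and the Tspan4 end alone at Polr2l/Tspan4. Strong subunit peaks also stood without the mark. Rnf5/Agpat1 had a KMT9beta score of 752 and Aamdc/Rsf1, with a chromatin remodelling subunit, one of 657, and Slc25a29/Slc25a47 and Mepce/Zcwpw1 had 579 and 578, all with KMT9alpha at 3100 and no H4K12me1 peak in the window. At Mepce/Zcwpw1 these highest-scoring peaks lay inside Mepce and covered neither 5' end, and another peak of each subunit covered both.

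Few pairs had peaks of only some antibodies outside these patterns. H4K12me1 stood without either subunit at 5 pairs, including Dgcr2/Tssk2 with a score of 102 and Ifit1bl2/Ifit1, with an interferon-induced gene, at 81.6. KMT9alpha alone was found at Sirt1/Dnajc12, with the gene of a deacetylase, at a score of 570 and at Hist1h2ag/Hist1h2bj at 321. KMT9beta alone was found at Hist1h2ba/Hist1h2aa with 166, at Zfyve28/Cfap99 with 163 and at Col4a4/Col4a3 with 161. The lowest KMT9alpha, KMT9beta and H4K12me1 scores in the deposited lists were 50.0 each, so a weaker signal would be absent from them.

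The 16 pairs without any peak had a median CpG ratio of 0.22, and 5 of them include a gene with a provisional symbol. Among them are Lrrc63/Lcp1, with a leukocyte actin-binding protein, and Peg3/Usp29, an imprinted pair. At Lrrc63/Lcp1 the nearest peaks lay 114394 bp (KMT9alpha), 35095 bp (KMT9beta) and 35373 bp (H4K12me1) away. At 8 of the 16 pairs another annotated start of 1 of the genes had a peak within 1 kb. Of the 10 annotated starts of Trim28, a corepressor, 8 had KMT9alpha nearby, although its outermost 5' end, paired with Slc27a5, had none. Of the 8 annotated starts of Pecam1, an endothelial adhesion molecule, 5 had KMT9alpha and 1 had H4K12me1 nearby, while the 5' end paired with Milr1 had none. Of the 8 starts of Rps2, a ribosomal protein of the small subunit, 7 had KMT9alpha nearby, while the annotated 5' end shared with Rnf151 had none. The gene 5' end used by the rule is the outermost annotated start, and which start the organoids use was not measured.

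Motif letters were searched in 300 bp centred on the span midpoint of pairs and, for single-gene promoters, in 250 bp before and 50 bp after the 5' end, on both strands. CCGGAAG, the core of an ETS factor site, was in 208 pairs (28.3%, 25.1 to 31.7), against 14.2% of reweighted single-gene promoters and 11.0% of all protein-coding promoters, a difference of 14.2 points (10.8 to 17.5) from the reweighted share. CCAAT was in 44.6% of pairs, 37.1% of reweighted single-gene promoters and 38.6% of all promoters, a difference of 7.5 points (3.8 to 11.2). AAGATGG, a YY1 core, was in 10.6% of pairs, 6.0% of reweighted single-gene promoters and 6.2% of all promoters, a difference of 4.6 points (2.3 to 6.9). With the lowest CpG class left out these differences were 13.9, 8.8 and 4.9 points. The reweighting used CpG ratio and not GC content. Median GC content in these 300 bp was 62.7% for pairs and 54.3% for single-gene promoters, and its part was not tested. The motif windows lie differently about the 5' ends in pairs and single-gene promoters. With both centred on the midpoint or 5' end, the differences were 13.1, 10.8 and 3.5 points.

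For the other motifs the interval of the difference included 0. GGGCGGG was in 48.2% of pairs, 48.1% of reweighted single-gene promoters and 32.1% of all promoters, and with the lowest CpG class left out in 52.1% of pairs and 56.4% of single-gene promoters, a difference of -4.3 points (-8.5 to -0.1). GCATGCG was in 7.8% of pairs, 6.5% of reweighted single-gene promoters and 4.4% of all promoters, and CACGTG in 10.9% of pairs, 9.9% of reweighted single-gene promoters and 7.8% of all promoters. TGACGTCA was in 4.5% of pairs, 3.4% of reweighted single-gene promoters and 2.4% of all promoters. TATAAAA was in 2.5% of pairs, 3.3% of reweighted single-gene promoters and 4.9% of all promoters, and 1 of its pair matches, read on the other strand, stands in the Hist1h2ac/Hist1h2bc sequence. Pairs with CCGGAAG had KMT9alpha at 99.0% and pairs without it at 91.6%, and H4K12me1 at 65.4% with it and 66.5% without it. Pairs with the other letters also had KMT9alpha more often than pairs without them. The shares were 98.7% and 93.1% for AAGATGG, 98.8% and 93.1% for CACGTG, 98.2% and 93.4% for GCATGCG, and 96.9% and 90.8% for GGGCGGG. For CCAAT the KMT9alpha shares were 94.2% and 93.4%, for TGACGTCA 97.0% and 93.6%, and for TATAAAA, in 18 pairs, 94.4% and 93.7%. KMT9beta was lower in pairs with CCAAT (95.7% and 96.8%), TATAAAA (83.3% and 96.6%) and TGACGTCA (93.9% and 96.4%), and higher with the others. At single-gene promoters KMT9alpha was lower with CCAAT (46.1% and 47.4%) and TATAAAA (22.6% and 48.3%), and higher with the others. These splits were not matched for CpG ratio, and no intervals were computed for them. CCGGAAG was in 29.4% of pairs with all 3 antibodies and in 31.8% of pairs with both subunits and no mark. GCATGCG overlaps its own reverse complement in part, so neighbouring matches can be 1 site. A match is a description of the letters and no evidence of binding.

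Other divergent arrangements were counted in the same way. At 676 pairs of a protein-coding gene head to head with a long non-coding RNA gene, KMT9alpha was present at 79.1%, KMT9beta at 84.3%, H4K12me1 at 58.1% and all 3 at 52.5%. Reweighted to the CpG classes, the KMT9alpha share was 93.7% for protein-coding pairs and 83.8% for these, a difference of 9.9 points (7.1 to 12.8), and the H4K12me1 share was 66.2% for protein-coding pairs and 61.9% for these, a difference of 4.3 points (-0.6 to 9.3). At 446 protein-coding pairs whose 5' ends overlap, KMT9alpha differed little, at 93.7% of head-to-head pairs and 92.1% of these after reweighting, a difference of 1.6 points (-1.3 to 4.5). H4K12me1 was at 66.2% of head-to-head pairs and 63.6% of these, a difference of 2.6 points (-3.0 to 8.2).

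Pairs on chromosome 19 stood apart for the mark. All 23 pairs there had H4K12me1 (exact interval 85.2 to 100%), and 21 had all 3 antibodies. Single-gene promoters on chromosome 19 had H4K12me1 at 63.2%, unweighted, against 39.3% of single-gene promoters on all autosomes, so the mark was also more frequent outside pairs on that chromosome. On the other autosomes with 20 or more pairs the mark was present at 46.2% of pairs (chromosome 15) to 78.0% (chromosome 7). Without chromosomes 5 and 19 the differences from single-gene promoters were 20.2 points for KMT9alpha and 8.7 points for H4K12me1. Nearest to the distance limit, Btf3l4/Txndc12 at 987 bp had both subunits, at scores of 3100 for KMT9alpha and 159 for KMT9beta, and Gpr108/Trip10 at 1009 bp, outside the rule, had 1466 for KMT9alpha, 265 for KMT9beta and 179 for H4K12me1.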

How the data were processed

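Peaks were deposited by the authors as 1 list per antibody, with position, name and score. Per the labels' protocols reads were mapped to mm10 with STAR, while the submitters' processing notes name Bowtie2. The peak names begin with MACS, and the caller's version, threshold and control were not given in the sources used here. Scores as deposited have no stated definition, and they were used only to rank peaks within 1 list. The lists held 26227 peaks for KMT9alpha, 90473 for KMT9beta and 60409 for H4K12me1, and depth is unknown, so the lists differ in sensitivity to an unknown degree.

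Gene 5' ends came from GENCODE M21 on GRCm38.p6. A peak counted when it shared 1 bp or more with the span plus 1 kb on either side, or with 1 kb on either side of a single-gene 5' end. Where a promoter had several peaks of an antibody, the highest score and the greatest width were taken. Shares have exact Clopper-Pearson 95% intervals. Differences from single-gene promoters were directly standardised to 5 CpG classes, with normal 95% intervals. With 1 library per antibody no p-value was computed. Pairs were named as textbook pairs, as the highest or lowest of each peak combination by score or symbol, and as up to 2 per gene list by KMT9alpha score, and 1 pair that this rule picks is not reported here. The rule for pairs uses no measured value, but the rule and the gene lists were chosen with earlier results of these data known. The reweighted difference and the counting of overlaps were tested on simulated data, and the other steps were not. In the simulation both kinds of promoter differed within a CpG class only by a set amount. The poor match in the lowest CpG class was therefore not covered. The software was numpy 2.4.6, pandas 2.3.3, scipy 1.17.1 and matplotlib 3.10.9 under Python 3.11.15.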

Additional observations from a re-analysis of the deposited data

How the results depend on the processing

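The shares were recomputed under 18 other settings, 4 of them chosen after seeing the data (20 CpG classes, the lowest CpG class left out, 1 pair per promoter, and single-gene promoters at their principal transcript start). No difference for KMT9alpha, KMT9beta, H4K12me1, all 3 or none changed direction. With 10 CpG classes the difference was 15.5 points for KMT9alpha, 9.2 for KMT9beta and -6.8 for none, and with 20 classes 14.2, 7.5 and -5.1. Leaving out the lowest class gave 10.9 for KMT9alpha, 5.0 for KMT9beta, 1.7 for H4K12me1, 7.6 for all 3 and -2.3 for none. Peaks at or above the median score gave 21.7 for KMT9alpha, 15.7 for KMT9beta, 3.4 for H4K12me1 (-0.3 to 7.1), 7.5 for all 3, -13.4 for none and -4.0 for the mark where both subunits lie. The same number of peaks per list gave 14.8 for KMT9beta, 2.8 for H4K12me1 (-0.9 to 6.4), 4.6 for all 3, -14.7 for none and -5.7 for the mark where both subunits lie. The cause was not tested. Coverage of both 5' ends by 1 peak was 94.9% for KMT9alpha, 97.4% for KMT9beta and 66.5% for H4K12me1 with 5' ends 300 bp or less apart, and 63.7% for H4K12me1 with peaks at or above the median score. The GGGCGGG difference was -4.3 points (-8.5 to -0.1) with the lowest CpG class left out. The remaining 118 values for these results stayed within the interval of the value given. No paired analysis was possible because each antibody has 1 library with no second condition to pair it with.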
